A study of Mus musculus with 2 samples.

Results

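Transcript levels of 8 genes of the Eph receptor and ephrin family were read in single cells of the mouse hindlimb bud: the receptors Epha3, Epha4, Epha7, Ephb2 and Ephb3 and the ligands Efna5, Efnb1 and Efnb2. The genes were taken by name from the rows of both count matrices, and all 8 were found among 56982 features, which hold 22 family genes in all. The tissue came from 2 FVB embryos at E11.5, the stage of limb outgrowth, with 1 droplet-based single-cell RNA sequencing library from each. The dual-enSERT-2 embryo carried B-ZRS-mCherry and ZRS404G>A-eGFP-B, with SI written between them, at H11. The dual-enSERT-1 embryo carried ZRS-mCherry and ZRS404G>A-eGFP (GFP in its genotype label) at H11, with neither B nor SI. Both groups therefore share fluorescent reporters of the ZRS, the limb enhancer of Shh, and of its 404G>A variant, and a limb without reporters was not analysed here. With 1 library per group no test between libraries is possible, so embryo, construct and preparation cannot be told apart, and all differences below are described with counting intervals that cover counting error only.

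Eph receptors are receptor tyrosine kinases whose ligands, the ephrins, are themselves held on the surface of neighbouring cells, so that signalling needs cell contact and can run in both directions. Ephrin-A ligands are anchored by a lipid and bind mainly EphA receptors, whereas ephrin-B ligands span the membrane and bind mainly EphB receptors, and EphA4 also binds ephrin-B. In the limb bud the family is known for sorting mesenchymal cells along the proximal-distal axis, for guiding motor axons and migrating muscle precursors, and for marking arteries through ephrin-B2.

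The genes lie at chr16:63363897-63684538 (Epha3, minus strand), chr1:77343822-77492816 (Epha4, minus), chr4:28813034-28967507 (Epha7, plus), chr4:136374850-136563351 (Ephb2, minus), chr16:21023495-21042057 (Ephb3, plus), chr17:62909956-63188312 (Efna5, minus), chrX:98179680-98205454 (Efnb1, plus) and chr8:8667226-8711249 (Efnb2, minus) on GRCm39 in GENCODE M39. Genes annotated on the opposite strand overlap Epha4, Epha7, Ephb2, Efna5 and Efnb2, and other genes on the same strand overlap Epha3, Epha4, Ephb2, Efna5 and Efnb2. As the sources used here do not say whether strand was used in counting, reads of these neighbours cannot be told apart from those of the members. The bases before the RefSeq start of Epha4 and Epha7, which had opposite proximal-distal levels, and of Efnb2, which was higher in cells with an Lmx1b UMI, are printed 5′ to 3′ on the strand of the gene up to the first base that GENCODE places in an exon of the gene. The Epha4 stretch lies inside the GENCODE gene, whose own start at 77492816 is upstream of the RefSeq one, and is not exonic there. Capitals mark a match to any of the 4 motifs searched on both strands of the 250 bases before each start: TGACAG (MEIS), CAATAAA and TTTACGA (HOX13) and TAATTA (homeodomain).
Epha4, chr1:77491735-77491975, minus strand: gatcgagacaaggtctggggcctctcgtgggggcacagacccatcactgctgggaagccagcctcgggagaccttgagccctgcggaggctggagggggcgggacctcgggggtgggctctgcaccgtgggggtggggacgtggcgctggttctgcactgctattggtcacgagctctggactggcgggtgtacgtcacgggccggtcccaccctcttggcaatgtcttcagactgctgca
Epha7, chr4:28812881-28813033, plus strand: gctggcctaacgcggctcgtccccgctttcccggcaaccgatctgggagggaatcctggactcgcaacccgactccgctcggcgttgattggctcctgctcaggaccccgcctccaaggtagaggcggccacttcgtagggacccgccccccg
Efnb2, chr8:8711250-8711492, minus strand: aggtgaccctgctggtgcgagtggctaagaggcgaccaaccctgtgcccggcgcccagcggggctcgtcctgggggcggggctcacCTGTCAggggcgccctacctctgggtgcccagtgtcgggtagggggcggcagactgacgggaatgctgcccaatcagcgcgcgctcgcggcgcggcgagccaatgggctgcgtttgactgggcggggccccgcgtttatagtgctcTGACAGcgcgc
The Efnb2 window held 2 matches to TGACAG, whose first bases lay at -164 (as CTGTCA, on the opposite strand) and at -18 from the start, and no match to the other motifs. The windows of the other 7 members held no match to any of the 4 motifs, and no match overlapped another. Of 32851 RefSeq windows of the same length, 15.9% held TGACAG, 4.2% CAATAAA, 0.478% TTTACGA and 4.84% TAATTA. The windows were rich in G and C, with 66.0% for Epha4, 69.2% for Epha7 and 72.0% for Efnb2, against a median of 52.4% over all windows. These are matches of letters only, and no binding was measured.

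The matrices held 184301053 UMIs (unique molecular identifiers, each standing for 1 captured transcript molecule) in 8885 barcodes of dual-enSERT-2 and 298653282 UMIs in 20508 barcodes of dual-enSERT-1, of which 6472 and 16041 were kept as cells. Cells were sorted into classes by clustering without any Eph or ephrin gene, so that the members did not shape the classes, and named "like" by marker genes. Mesenchyme-like cells, those of the loose tissue that makes up most of the bud, numbered 3795 in dual-enSERT-2 and 13091 in dual-enSERT-1. In them the hindlimb genes Tbx4 and Pitx1 stood at 130 and 335 CPM (counts per 1000000 UMIs of the cell group) in dual-enSERT-2 and at 190 and 350 CPM in dual-enSERT-1, whereas the forelimb gene Tbx5 stood at 0.00926 and 0.278 CPM. The blood cells of dual-enSERT-2 stood apart: its erythroid-like cells had Xist, the RNA of the inactive X chromosome, at 92.6 CPM and its macrophage-like cells at 62.4 CPM, against 0.926 CPM in its own mesenchyme-like cells and 0.204 and 0 CPM in the same blood classes of dual-enSERT-1. Erythroid-like cells made up 1637 of the cells of dual-enSERT-2 and 245 of those of dual-enSERT-1. As red cells are not known for the family, their level is given below for comparison, and it was at most 5.72 CPM for any member in either library. Mesenchyme markers summed in erythroid-like cells to 1.3% of their mesenchymal level in dual-enSERT-2 and 2.32% in dual-enSERT-1, less than in the other classes, so it need not be the level that free RNA gives there. The libraries shared 49 barcode sequences, of which 33 and 41 were kept as cells.

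By class, 6 of the 8 members had the same top class in both libraries. Epha3 was highest in muscle-like cells, Efnb2 in endothelial-like cells, Efna5 in ectoderm-like cells, and Epha4, Epha7 and Efnb1 in mesenchyme-like cells. Ephb2 and Ephb3 were highest in ectoderm-like cells of dual-enSERT-2 and in mesenchyme-like cells of dual-enSERT-1. The top class of Ephb2 in dual-enSERT-1 was ectoderm-like cells, as in dual-enSERT-2, when doublets were kept, with at least 2000 genes a cell and with CPM free of haemoglobin, mitochondrial and ribosomal protein genes. The plot of levels by class shows the 8 genes side by side.

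**Figure D1:**
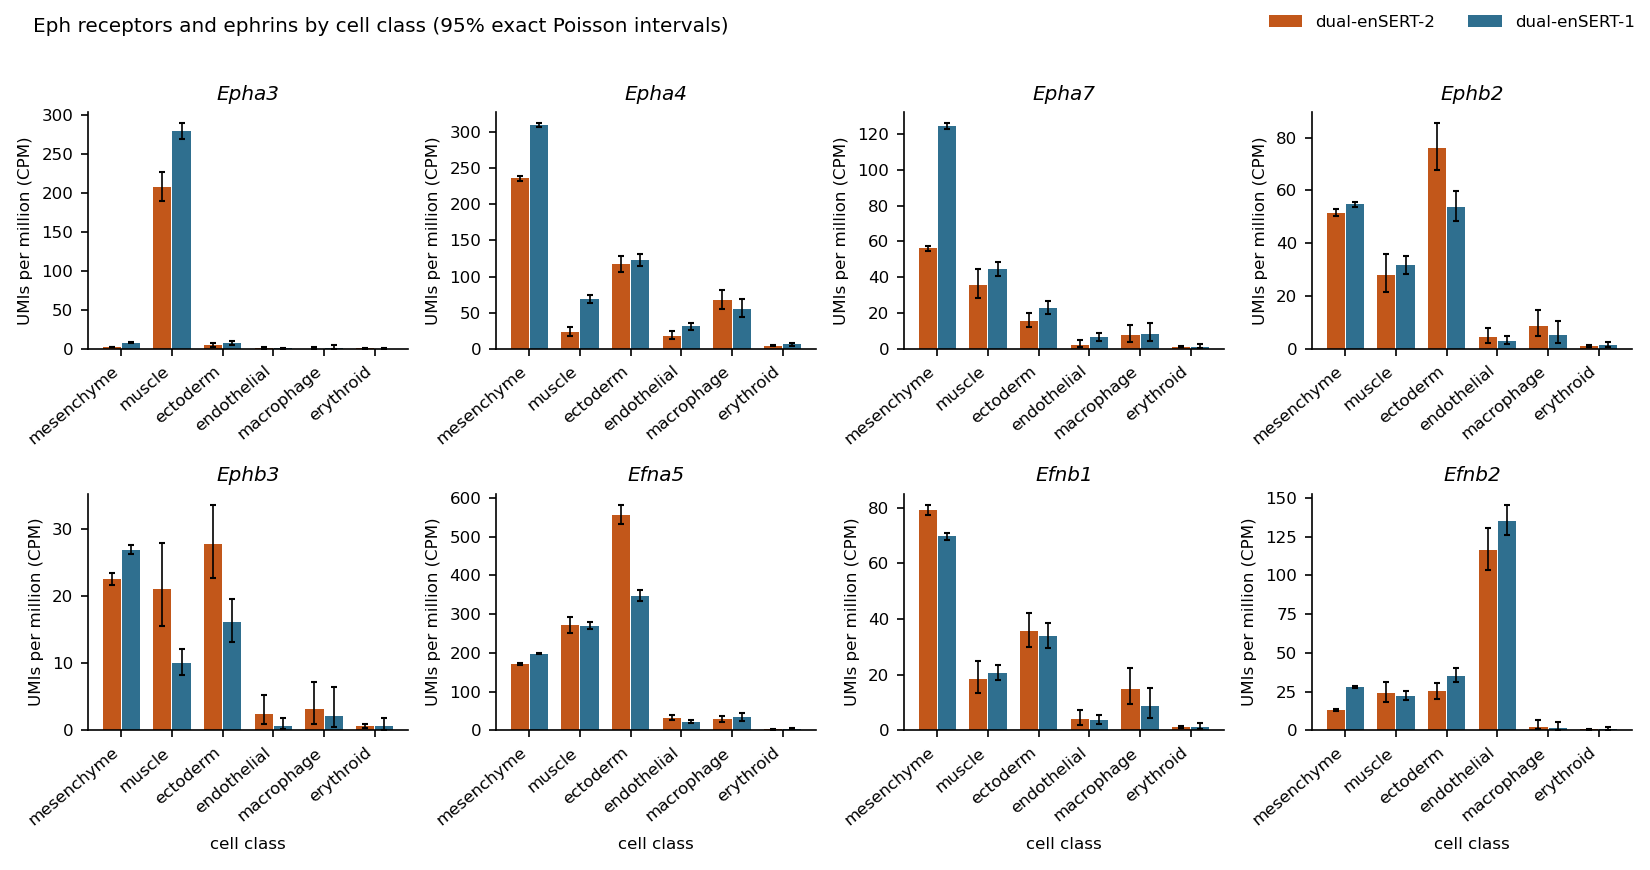
Level of each gene in CPM (vertical axis, starting at 0) in 6 cell classes (horizontal axis), with dual-enSERT-2 to the left of dual-enSERT-1 and 95% exact Poisson intervals as error bars. Epha3 stands out in muscle at 207 and 279 CPM and Efnb2 in endothelium at 117 and 135 CPM, while all genes are near 0 in erythroid cells.

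Epha3, an EphA receptor, had its highest level in muscle-like cells, the migrated precursors of limb muscle. It was 207 CPM (95% interval 189 to 227) in the 77 muscle-like cells of dual-enSERT-2 and 279 CPM (269 to 289) in the 549 of dual-enSERT-1. Mesenchyme-like cells had 2.01 CPM in dual-enSERT-2 and 7.73 CPM in dual-enSERT-1, so that muscle-like cells exceeded them 103-fold (87.7 to 122) and 36.1-fold (34.0 to 38.4). Ectoderm-like cells had 4.45 and 7.01 CPM, and endothelial-like, macrophage-like and erythroid-like cells at most 0.729 CPM in either library. With each cell thinned to 5000 UMIs, 49.3% of muscle-like cells of dual-enSERT-2 and 48.7% of those of dual-enSERT-1 had an Epha3 UMI, against 0.719% and 2.57% of mesenchyme-like cells. Without thinning the shares were 74.0% and 62.7% of muscle-like and 2.85% and 6.26% of mesenchyme-like cells. The 8 muscle markers summed to 7.52 CPM in mesenchyme-like cells of dual-enSERT-2, where Myog and Msc were at 0, and to 37.8 CPM in those of dual-enSERT-1, where none was at 0. These were 0.715% and 3.53% of their level in muscle-like cells, and their part in the mesenchymal Epha3 level was not tested.

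Epha4, the receptor that binds both ephrin classes, was highest in mesenchyme-like cells, at 236 CPM (233 to 239) in dual-enSERT-2 and 310 CPM (308 to 312) in dual-enSERT-1. Ectoderm-like cells followed with 118 and 123 CPM. The levels in macrophage-like cells, 66.7 and 55.4 CPM, and in muscle-like cells, 23.3 and 68.7 CPM, changed places between the libraries, and in dual-enSERT-1 their intervals overlapped. Endothelial-like cells had 17.7 and 30.9 CPM and erythroid-like cells 3.74 and 5.72 CPM. The 8 mesenchyme markers, none of which was at 0 in any class, summed in macrophage-like cells to 17.3% of their mesenchymal level in dual-enSERT-2 and 16.1% in dual-enSERT-1, and in ectoderm-like cells to 14.9% and 11.6%. Epha4 itself was 0.283 (0.232 to 0.342) and 0.179 (0.141 to 0.224) times its mesenchymal level in macrophage-like cells, and 0.498 (0.453 to 0.547) and 0.396 (0.369 to 0.425) times in ectoderm-like cells. The interval of macrophage-like cells of dual-enSERT-1 thus included the marker share. The 5 megakaryocyte markers summed in macrophage-like cells to 1452 CPM in dual-enSERT-2 and to 325 CPM in dual-enSERT-1, where Gp1bb and Ppbp were at 0. The class thus differed in make-up between the libraries, and the part of either marker list in these levels was not tested.

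Epha7, an EphA receptor that binds ephrin-A ligands, was also highest in mesenchyme-like cells, at 56.2 CPM (54.8 to 57.7) in dual-enSERT-2 and 125 CPM (123 to 126) in dual-enSERT-1. Muscle-like cells had 35.8 and 44.6 CPM and ectoderm-like cells 15.7 and 22.7 CPM. The remaining classes had at most 8.02 CPM. The order of the classes was the same in both libraries, with macrophage-like and endothelial-like cells not separated beyond their intervals in either. In dual-enSERT-2 the intervals of ectoderm-like and macrophage-like cells also met, as did those of endothelial-like and erythroid-like cells.

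The EphB receptors were spread over more classes. Ephb2 had 76.2 CPM in ectoderm-like, 51.5 CPM in mesenchyme-like and 28.0 CPM in muscle-like cells of dual-enSERT-2, against 53.9, 54.7 and 31.7 CPM in the same classes of dual-enSERT-1. Ephb3 had 27.7 CPM in ectoderm-like, 22.5 CPM in mesenchyme-like and 21.1 CPM in muscle-like cells of dual-enSERT-2, against 16.2, 26.9 and 10.1 CPM in dual-enSERT-1. Ephb2 differed between the top pair of classes beyond its intervals in dual-enSERT-2 and not in dual-enSERT-1, and for Ephb3 the reverse held. Both receptors stayed at or under 8.73 CPM in endothelial-like, macrophage-like and erythroid-like cells.

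Among the ligands, Efna5, the ephrin-A, was highest in ectoderm-like cells, with 557 CPM (533 to 581) in dual-enSERT-2 and 348 CPM (333 to 362) in dual-enSERT-1. Muscle-like cells had 271 and 270 CPM and mesenchyme-like cells 170 and 198 CPM. Ectoderm-like cells thus exceeded mesenchyme-like cells 3.27-fold (3.13 to 3.42) and 1.75-fold (1.68 to 1.83), in the same direction but with intervals that do not meet. Endothelial-like cells had 32.3 and 22.8 CPM, macrophage-like cells 28.7 and 33.6 CPM and erythroid-like cells 2.75 and 4.08 CPM. Efna5 in macrophage-like cells was 0.169 (0.123 to 0.225) and 0.169 (0.124 to 0.226) times its mesenchymal level. These intervals included the mesenchyme marker shares of 17.3% and 16.1% in that class, whose part in the level was not tested.

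Efnb1, the X-linked ephrin-B, was highest in mesenchyme-like cells, with 79.2 CPM (77.5 to 80.9) in dual-enSERT-2 and 69.6 CPM (68.5 to 70.8) in dual-enSERT-1. Ectoderm-like cells had 35.6 and 33.8 CPM and muscle-like cells 18.5 and 20.6 CPM. Endothelial-like cells had 4.03 and 3.69 CPM and erythroid-like cells 1.25 and 1.22 CPM.

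Efnb2, the ephrin-B of arteries, was highest in endothelial-like cells, with 117 CPM (103 to 131) in dual-enSERT-2 and 135 CPM (126 to 145) in dual-enSERT-1. This was 8.77-fold (7.70 to 9.95) and 4.85-fold (4.50 to 5.23) its level in mesenchyme-like cells, where it had 13.3 and 27.9 CPM. Ectoderm-like cells had 25.1 and 35.3 CPM and muscle-like cells 24.1 and 22.4 CPM. At 5000 UMIs a cell, 46.5% and 52.4% of endothelial-like cells had an Efnb2 UMI. Without thinning the shares were 64.4% and 70.8% of endothelial-like cells and 25.0% and 27.2% of mesenchyme-like cells. Endothelial-like cells had a median depth of 16024.5 and 17616.5 UMIs, and the deeper erythroid-like cells, with medians of 27305 and 19408 UMIs, had shares of 1.53% and 2.04%.

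Within endothelial-like cells, those with a UMI of Gja4, Gja5, Sox17 or Dll4, genes of arterial endothelium, were set against those with none. Arterial genes were read with each cell thinned to 5000 UMIs, which left out 33 shallower cells of dual-enSERT-2 and 36 of dual-enSERT-1. Levels are over all UMIs of the cells kept. Efnb2 stood at 146 CPM in 49 arterial cells and 69.4 CPM in 22 others of dual-enSERT-2, and at 163 CPM in 132 arterial cells and 60.3 CPM in 34 others of dual-enSERT-1. The ratios were 2.11 (1.58 to 2.85) and 2.70 (2.16 to 3.41), above 1 in both libraries. The log2 folds were 1.07 and 1.42. With cells sorted at 2000 UMIs they were 0.0258 and 1.25, so that dual-enSERT-2 showed no difference between the groups sorted at that depth. Epha4 gave no stable direction, with 15.4 CPM in arterial and 23.9 CPM in other cells of dual-enSERT-2, against 35.7 and 14.9 CPM in dual-enSERT-1. Its log2 folds of -0.60 and 1.20 became 4.28 and -0.41 without thinning. The other 6 members had few UMIs in these cells, and only Efna5 reached 10 CPM in either group of both libraries, with 10.7 CPM in arterial and 69.4 CPM in other cells of dual-enSERT-2 and 23.3 and 22.4 CPM in dual-enSERT-1. The Efna5 log2 fold in dual-enSERT-2 was -2.59, and 0.77 with cells sorted at 2000 UMIs.

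Within ectoderm-like cells, those with a UMI of Fgf8, the signal of the apical ectodermal ridge at the rim of the bud, were set against those with none. Fgf8 was read with each cell thinned to 5000 UMIs, which left out 30 shallower cells of dual-enSERT-2 and 111 of dual-enSERT-1. Levels are over all UMIs of the cells kept. Epha4 had 177 CPM in 59 ridge cells and 65.3 CPM in 92 others of dual-enSERT-2, and 252 CPM in 72 ridge cells and 71.4 CPM in 248 others of dual-enSERT-1, ratios of 2.71 (2.20 to 3.35) and 3.53 (3.04 to 4.09). Ephb2 had the opposite pattern, with 24.1 CPM in ridge and 120 CPM in other cells of dual-enSERT-2 and 22.5 and 71.7 CPM in dual-enSERT-1, ratios of 0.201 (0.141 to 0.280) and 0.313 (0.221 to 0.434). Both genes therefore separated ridge from other ectoderm in the same direction in each library. Efnb1 was higher in ridge cells, with 45.4 against 27.6 CPM in dual-enSERT-2 and 49.7 against 28.2 CPM in dual-enSERT-1. Its log2 folds were 0.70 and 0.80. They fell to 0.21 in dual-enSERT-2 with cells sorted at 2000 UMIs and to 0.49 in dual-enSERT-1 with doublets kept. Efnb2 had log2 folds of -0.50 in dual-enSERT-2 and -1.14 in dual-enSERT-1, and the first was 0.05 with cells sorted at 2000 UMIs. For Ephb3 they were 0.11 and -0.59. Epha7 had 19.5 and 12.5 CPM in ridge and other cells of dual-enSERT-2, a ratio whose interval included 1 (0.901 to 2.72), and 46.5 and 13.4 CPM in dual-enSERT-1. Epha3 rested on few UMIs in this class, with 15 in ridge and 1 in other cells of dual-enSERT-2 and 40 and 4 in dual-enSERT-1. Efna5 had 548 and 565 CPM in ridge and other cells of dual-enSERT-2 and 434 and 331 CPM in dual-enSERT-1, with log2 folds of -0.04 and 0.39.

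**Figure D2:**
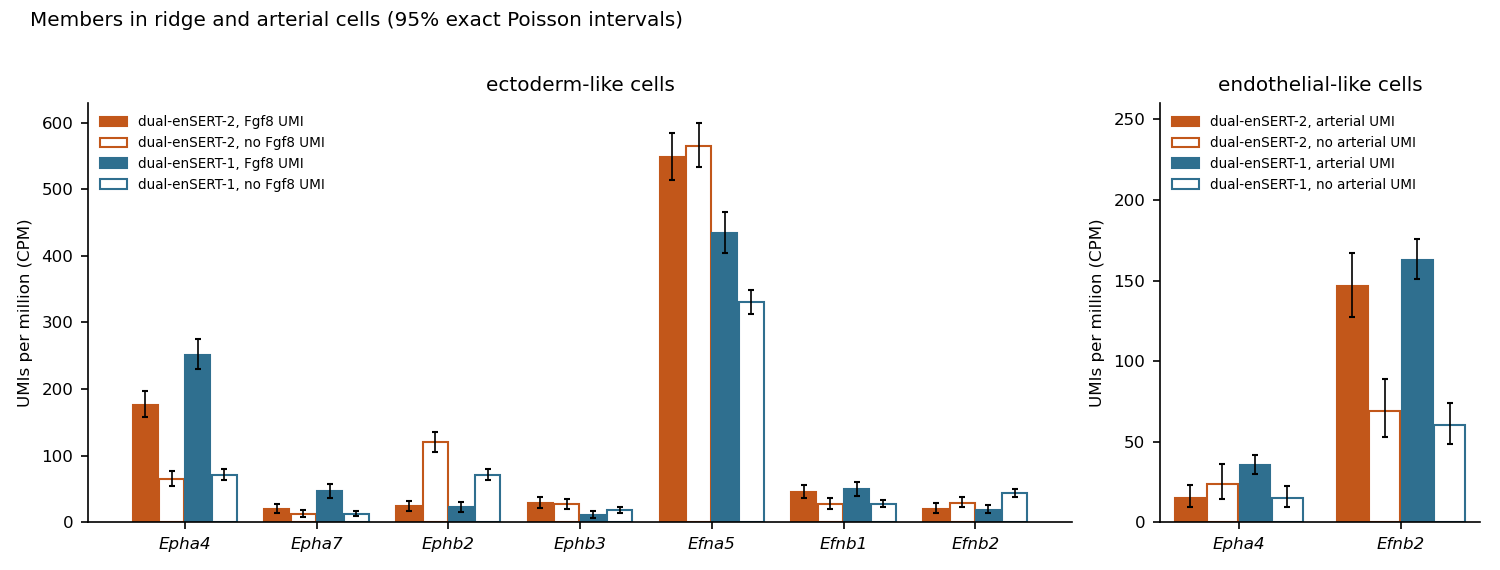
Level in CPM (vertical axes, starting at 0) of members in ectoderm-like cells with (filled) and without (open) an Fgf8 UMI and in endothelial-like cells with and without an arterial UMI, with 95% exact Poisson intervals. Cells were sorted after thinning to 5000 UMIs each, and shallower cells are left out. Epha4 is higher and Ephb2 lower in ridge cells of both libraries, and Efnb2 is higher in arterial cells of both.

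Position within the mesenchyme was read from the genes that mark it. Cells were thinned to 5000 UMIs each, which left out 39 and 115 shallower cells, and called distal with a UMI of Hoxa13 or Hoxd13, the genes of the future foot, and none of Meis1 or Meis2, the genes of the future thigh, and proximal in the reverse case. There were 487 distal, 96 double positive, 1714 double negative and 1459 proximal cells in dual-enSERT-2 and 3874, 303, 5446 and 3353 in dual-enSERT-1. Levels are over all UMIs of those cells, and folds are log2 ratios with 1 CPM added to both sides. A gene counted as different if, in both libraries, it reached 10 CPM in either cell group and its log2 fold was 0.58 or more in size and of the same sign. Of the 7 members with enough UMIs, 2 were higher in distal cells by this rule, against 1.9% of the 8901 features measured, and 2 were lower, against 2.89%. The median log2 fold of the 7 was -0.28 in dual-enSERT-2 and -0.29 in dual-enSERT-1, and over all features it was -0.00357 and 0.02.

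Epha4 was higher in distal than in proximal cells. It had 438 CPM (427 to 449) in distal and 109 CPM (105 to 112) in proximal cells of dual-enSERT-2, and 466 CPM (460 to 471) in distal and 217 CPM (213 to 221) in proximal cells of dual-enSERT-1. The log2 folds were 2.0 and 1.10. The distal levels lay close together in both libraries, and the proximal level was lower in dual-enSERT-2. At matched depth, 70.0% of distal and 31.5% of proximal cells of dual-enSERT-2 had an Epha4 UMI, and 75.8% and 49.4% of those of dual-enSERT-1. In erythroid-like cells the share at that depth was 2.57% and 3.67%. Without thinning it was 93.2% of distal and 66.1% of proximal cells of dual-enSERT-2 and 92.2% and 70.2% of those of dual-enSERT-1.

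Epha7 was lower in distal than in proximal cells, with 30.7 CPM (28.0 to 33.7) in distal and 86.6 CPM (83.8 to 89.5) in proximal cells of dual-enSERT-2, and 31.6 CPM (30.3 to 33.0) in distal and 289 CPM (285 to 294) in proximal cells of dual-enSERT-1. The log2 folds were -1.47 and -3.15. The distal levels of the libraries did not differ beyond their intervals, and the size of the proximal excess did. Cells with neither set of markers had 39.5 and 104 CPM, between distal and proximal cells in both libraries.

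Efna5, which binds both of these receptors, was lower in distal cells. It had 114 CPM (109 to 120) in distal and 196 CPM (191 to 200) in proximal cells of dual-enSERT-2, and 131 CPM (129 to 134) in distal and 232 CPM (228 to 237) in proximal cells of dual-enSERT-1. The log2 folds of -0.77 and -0.82 were close to each other. Efnb1 was higher in distal cells, with 102 CPM (97.2 to 108) in distal and 64.9 CPM (62.4 to 67.4) in proximal cells of dual-enSERT-2, and 83.5 CPM (81.4 to 85.7) in distal and 48.3 CPM (46.4 to 50.3) in proximal cells of dual-enSERT-1, log2 folds of 0.65 and 0.78. Its levels followed the order distal, double positive or double negative, proximal in both libraries.

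The other members gave no common direction or a small fold. Ephb3 had 20.1 CPM in distal and 25.7 CPM in proximal cells of dual-enSERT-2 and 25.3 and 31.2 CPM in dual-enSERT-1, log2 folds of -0.34 and -0.29. Ephb2 had 46.2 and 56.2 CPM in distal and proximal cells of dual-enSERT-2 but 78.8 and 43.1 CPM in dual-enSERT-1. Efnb2 had 20.4 and 16.3 CPM in dual-enSERT-2 but 23.7 and 48.9 CPM in dual-enSERT-1. Ephb2 and Efnb2 thus differed in direction between the libraries, with log2 folds of -0.28 and 0.86 and of 0.31 and -1.01. Epha3 had at most 9.01 CPM in all 4 position groups of both libraries.

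**Figure D3:**
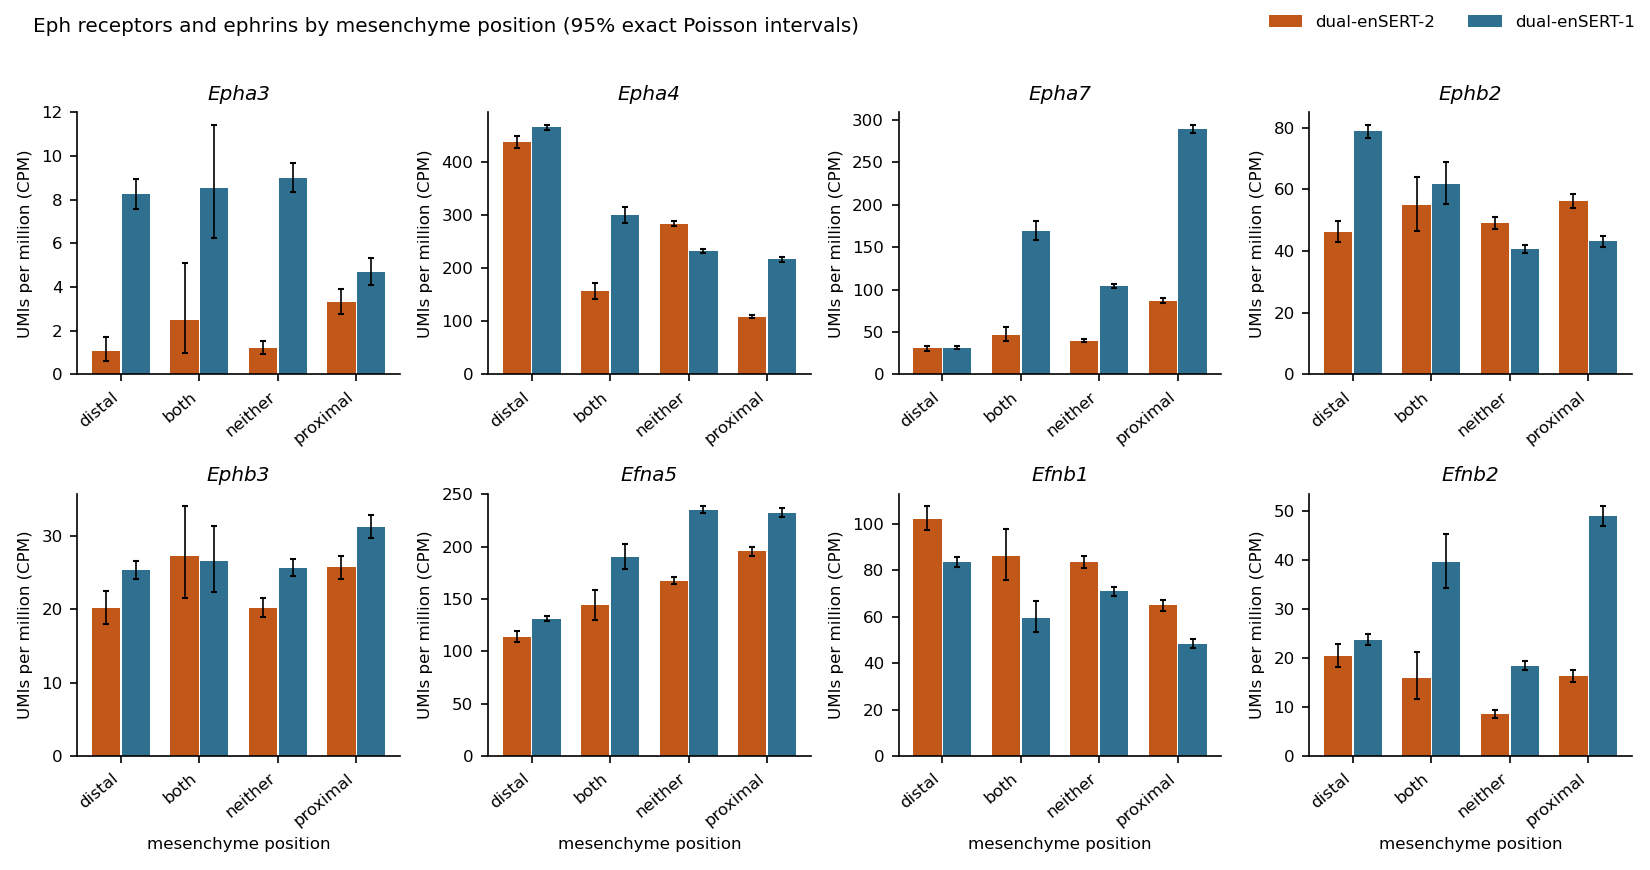
Level of each gene in CPM (vertical axis, starting at 0) in mesenchyme-like cells called distal, double positive (both), double negative (neither) and proximal, with dual-enSERT-2 to the left of dual-enSERT-1 and 95% exact Poisson intervals. Epha4 and Efnb1 are lowest in proximal cells of dual-enSERT-2 and dual-enSERT-1 alike, and Epha7 is highest there.

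Of the other 14 family genes, 5 had enough UMIs in this comparison. Epha5, an EphA receptor, was higher in distal cells, with 40.8 against 12.8 CPM in dual-enSERT-2 and 46.8 against 21.8 CPM in dual-enSERT-1. Ephb4, Efna2, Efna4 and Efnb3 did not meet the rule, and their log2 folds ran between -0.65 and -0.05. Of 20 genes of Eph signalling, 17 had enough UMIs and 1 met the rule: Grip1, an adaptor that binds ephrin-B tails, with 127 CPM in distal and 83.4 CPM in proximal cells of dual-enSERT-2 and 233 and 94.1 CPM in dual-enSERT-1.

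Anterior cells were those with a UMI of Pax9, Alx1 or Alx4, 247 in dual-enSERT-2 and 785 in dual-enSERT-1, and were set against cells with none. In the anterior cells Pax9 stood at 5.93 CPM in dual-enSERT-2 and 82.1 CPM in dual-enSERT-1. Alx1 stood at 31.2 and 14.8 CPM and Alx4 at 36.0 and 27.4 CPM, so the anterior group differed in make-up between the libraries. None of the 7 members with enough UMIs met the rule in either direction, against 0.533% of 8815 features higher and 0.545% lower. Efna5 came closest, with 270 CPM in anterior and 163 CPM in other cells of dual-enSERT-2 and 275 and 193 CPM in dual-enSERT-1. Its log2 folds of 0.73 and 0.51 had the same direction, and the second was under 0.58. Set against cells with a UMI of Hand2, a gene of the posterior bud, Efna5 was higher by 2.02-fold (1.92 to 2.13) and 1.86-fold (1.79 to 1.93), with 134 and 148 CPM in the posterior cells. It met the rule also within distal cells alone, where anterior and other cells had 170 and 112 CPM in dual-enSERT-2 and 195 and 129 CPM in dual-enSERT-1. The share of all features that met the rule is not given here for the Hand2 comparison or within distal cells. Those anterior distal cells numbered 18 and 120. In the same cells Efnb2 was lower, with 11.7 against 20.7 CPM in dual-enSERT-2, resting on 6 UMIs, and 12.3 against 24.1 CPM in dual-enSERT-1. Epha3 had 9.89 CPM in anterior and 1.46 CPM in other cells of dual-enSERT-2 and 13.9 and 7.31 CPM in dual-enSERT-1, log2 folds of 2.15 and 0.85, but did not reach 10 CPM in dual-enSERT-2. Within proximal cells it had 22.5 CPM in anterior and 1.90 CPM in other cells of dual-enSERT-2, resting on 63 and 72 UMIs, and 5.05 and 4.66 CPM in dual-enSERT-1.

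Dorsal cells were those with a UMI of Lmx1b, the gene that gives limb mesenchyme its dorsal identity. They made up 361 cells, 9.61%, in dual-enSERT-2 and 4036 cells, 31.1%, in dual-enSERT-1. Of the 7 members with enough UMIs, 1 was higher, against 0.35% of 8867 features, and 0 were lower, against 0.0564%. The member was Efnb2, with 28.4 CPM (25.1 to 32.1) in dorsal and 11.9 CPM (11.2 to 12.6) in other cells of dual-enSERT-2, and 38.9 CPM (37.4 to 40.5) in dorsal and 22.6 CPM (21.9 to 23.4) in other cells of dual-enSERT-1. Its log2 folds were 1.19 and 0.76. Within proximal cells they were 1.21 and 0.76, and within distal cells 0.86 and 0.45, where the rule was not met. Epha7 lay just outside the rule, with 104 and 51.7 CPM in dorsal and other cells of dual-enSERT-2 and 157 and 109 CPM in dual-enSERT-1, log2 folds of 1.0 and 0.52. Within distal cells the Epha7 folds were -0.22 and 0.28 and within proximal cells 0.97 and 0.43. Epha4, Ephb2, Ephb3, Efna5 and Efnb1 had log2 folds between -0.38 and 0.34 in both libraries. In dual-enSERT-2, 59.8% of dorsal and 39.4% of other cells had a Meis UMI, against 28.9% and 27.8% in dual-enSERT-1. Cells without an Lmx1b UMI can also include dorsal cells whose Lmx1b was missed.

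**Figure D4:**
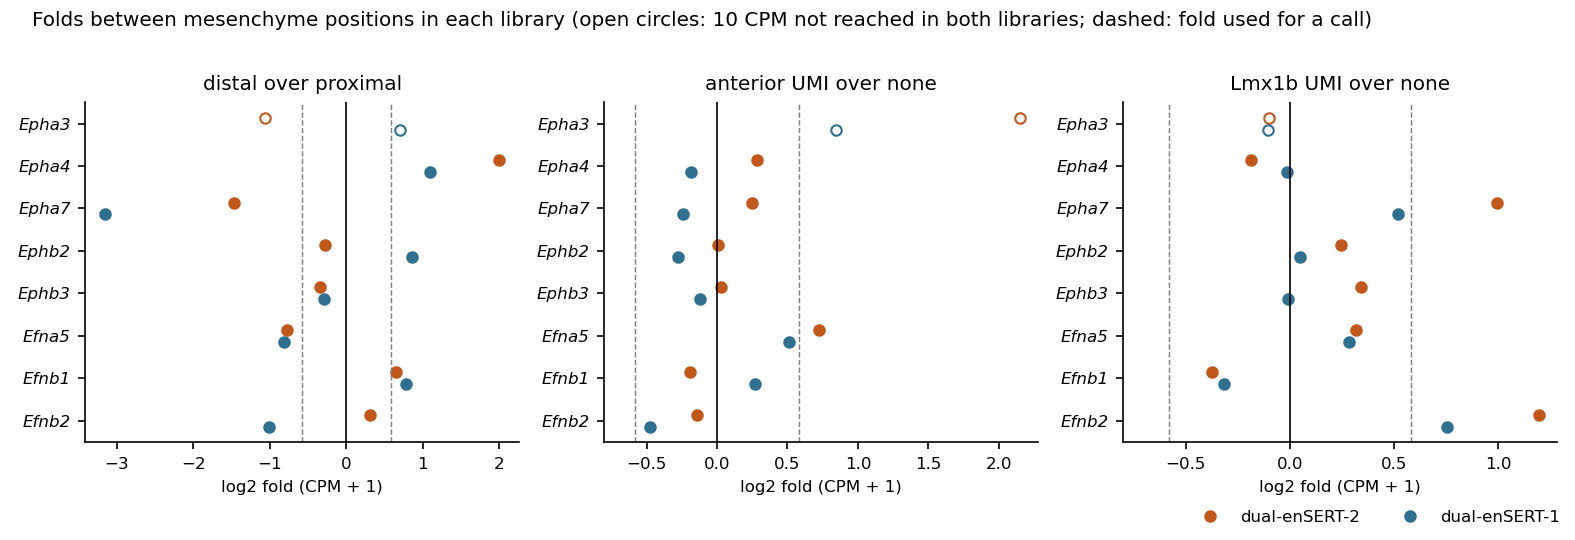
Log2 fold of each gene (rows) between distal and proximal, anterior and other, and Lmx1b-positive and other mesenchyme-like cells (3 panels, horizontal axes), with 1 circle per library and dashed lines at 0.58 on either side. In the first panel Epha4 and Efnb1 lie right and Epha7 and Efna5 left of the lines in both libraries, and in the third Efnb2 lies right of them.

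Over the 9 position groups with at least 30 cells in both libraries, formed by the 3 axes together, Epha7 had the widest range of the 8 members in dual-enSERT-1, where its highest level was 11.9 times its lowest. It ran between 29.4 CPM in distal cells without anterior or Lmx1b UMIs and 351 CPM in proximal cells with an Lmx1b UMI and no anterior UMI. In dual-enSERT-2 it ran between 26.5 and 153 CPM, 5.79 times, and its top group was the same. The widest range in dual-enSERT-2 was that of Epha3, 27.2 times, between 0.914 and 24.9 CPM. Its lowest group held 41 cells, and Epha3 had 2.01 CPM in all mesenchyme-like cells of dual-enSERT-2. The low end of this range thus rests on few UMIs. The narrowest ranges were those of Ephb2 (1.39 times) and Ephb3 (1.76 times) in dual-enSERT-2 and of Ephb3 (1.51 times) and Efnb1 (1.88 times) in dual-enSERT-1. Epha4 and Epha7 were inversely related over these groups, with Pearson r of -0.78 and -0.74 on log2(CPM + 1), as were Epha7 and Efnb1 with -0.88 and -0.85, while Epha7 and Efna5 had r of 0.68 in both libraries. Among 9442 genes ranked by the smaller r of the libraries, the profile most like that of Epha4 belonged to Slit3 (0.91 and 0.94), then Cd151 and Eogt, and genes with profiles like that of Epha7 included Mov10 and Col3a1. For Efna5 the order was Epb41l3 (0.94 and 0.96), Mgst1 and Glis1, and for Efnb1 it was Trappc5 (0.95 and 0.90), 0610010K14Rik and Gng5. For Efnb2 it was Calu (0.89 and 0.94), Cmip and St8sia2, for Ephb2 Tpr (0.85 in both), Smad2 and Smarca4, for Ephb3 Tnrc6a (0.88 and 0.90), Tfdp2 and Rap2c, and for Epha3 Cox16 (0.93 and 0.77), Selenon and Retreg3. The groups of 1 library share its depth and preparation and were formed by the same few genes, so these r values only describe the profiles.

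Receptor and ligand UMIs were then read in the same cells, at 5000 UMIs a cell. Epha4 and Efna5 were found together in 25.1% (23.8 to 26.6) of 3756 mesenchyme-like cells of dual-enSERT-2 and in 28.5% (27.8 to 29.3) of 12976 of dual-enSERT-1, where the product of their separate shares was 24.7% and 28.6%. Epha7 and Efna5 were found together in 12.2% and 17.9%, with products of 11% and 17.0%. Within proximal cells this pair was found together in 18.3% and 32.6% of cells and within distal cells in 4.93% and 5.96%. For Ephb2 and Efnb1 the shares were 6.36% and 6.13%, with products of 6.42% and 5.72%. Over the 7 pairs of receptor and ligand tested by class, the share of mesenchyme-like cells with both was between 0.895 and 1.19 times the product. In erythroid-like cells the share with a UMI of any 1 member was at most 3.67% at this depth.

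Between the libraries, mesenchyme-like cells were compared with a log2 fold of at least 1 in either direction and 10 CPM in either library. Of the 7 members with enough UMIs, 0 were higher in dual-enSERT-2, against 0.537% of 9315 features, and 2 were lower, against 2.42%. Epha7 had 56.2 CPM in dual-enSERT-2 and 125 CPM in dual-enSERT-1, a ratio of 0.451 (0.439 to 0.464). Efnb2 had 13.3 and 27.9 CPM, a ratio of 0.477 (0.450 to 0.505). The other 5 members had log2 folds between -0.39 (Epha4) and 0.18 (Efnb1), and Epha3 had 2.01 and 7.73 CPM, both under 10 CPM.

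The libraries differed in the make-up of their mesenchyme, with 13.0% distal cells in dual-enSERT-2 and 29.9% in dual-enSERT-1, 38.8% and 25.8% proximal cells, and 27.0% and 46.9% of cells with a UMI of Sox9, a gene of cartilage precursors. Within distal cells Epha7 had 30.7 and 31.6 CPM and Efnb2 20.4 and 23.7 CPM, log2 folds of -0.04 and -0.21. Within proximal cells Epha7 had 86.6 CPM in dual-enSERT-2 and 289 CPM in dual-enSERT-1 and Efnb2 16.3 and 48.9 CPM, log2 folds of -1.73 and -1.53. In cells with neither marker set the log2 folds were -1.38 and -1.03. In distal cells the ratio of Epha7 had an interval that included 1 (0.876 to 1.07), and that of Efnb2 was 0.862 (0.760 to 0.974), nearer to 1 than in the other groups. Epha4 was also lower in proximal cells of dual-enSERT-2, with 109 CPM in dual-enSERT-2 and 217 CPM in dual-enSERT-1, and a log2 fold of -0.99, against 438 and 466 CPM and -0.09 in distal cells. Unlike Epha7 and Efnb2, it was higher in dual-enSERT-2 in cells with neither marker set, with 284 against 233 CPM, a log2 fold of 0.29. Ephb2 had a log2 fold of -0.09 in all mesenchyme-like cells, -0.76 within distal, 0.38 within proximal and 0.26 in cells with neither marker set. The position groups themselves also differed in make-up. Proximal cells had Meis1 at 123 CPM in dual-enSERT-2 and 225 CPM in dual-enSERT-1, and Meis2 at 394 and 590 CPM. Of proximal cells, 14.1% and 31.8% had an Lmx1b UMI and 36.5% and 52.3% a Sox9 UMI. Of distal cells, 8.42% and 26.7% had an Lmx1b UMI and 10.7% and 33.7% a Sox9 UMI. The part of these differences in the library folds, of the whole mesenchyme or within position groups, was not tested.

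**Figure D5:**
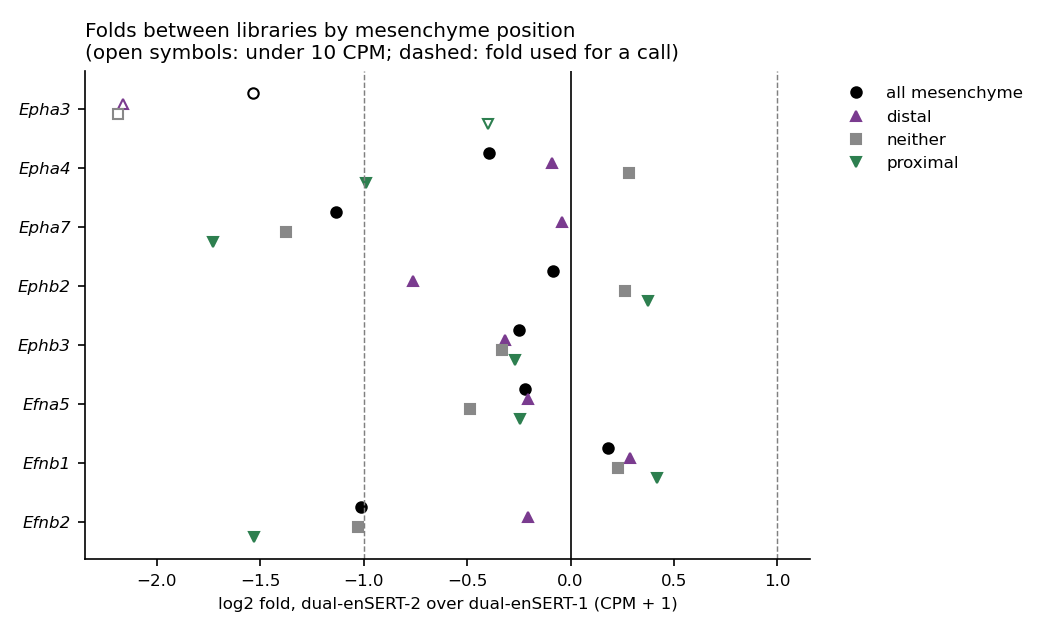
Log2 fold of dual-enSERT-2 over dual-enSERT-1 (horizontal axis) for each gene (rows) in all mesenchyme-like cells and in distal, double negative and proximal cells, with dashed lines at -1 and 1. The proximal symbols of Epha7 and Efnb2 lie at -1.73 and -1.53 and their distal symbols at -0.04 and -0.21.

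In the other classes the rule was met by 1 member in 1 class, Epha4 in muscle-like cells. The share of all features that met it in these classes is not given here, so this count has no background. In muscle-like cells Epha4 had 23.3 CPM in dual-enSERT-2 and 68.7 CPM in dual-enSERT-1, a ratio of 0.339 (0.252 to 0.447), while Ephb3 had 21.1 and 10.1 CPM, a ratio of 2.09 (1.46 to 2.96). Epha4 was there 0.0986 (0.0741 to 0.129) and 0.222 (0.206 to 0.238) times its mesenchymal level. Mesenchyme markers summed there to 8.44% and 8.37% of theirs, so the first interval included the marker share. Myog was at 0 in this class of dual-enSERT-2, and no muscle marker was at 0 in that of dual-enSERT-1. The part of these in the Epha4 ratio was not tested. In ectoderm-like cells Efna5 had 557 and 348 CPM, a ratio of 1.60 (1.51 to 1.70), Ephb3 had 27.7 and 16.2 CPM, a ratio of 1.71 (1.29 to 2.27), and Ephb2 had 76.2 and 53.9 CPM, a ratio of 1.41 (1.21 to 1.66). Epha7 and Efnb2 were lower in this class of dual-enSERT-2, with ratios of 0.691 (0.503 to 0.939) and 0.711 (0.554 to 0.906). In endothelial-like cells Efnb2 had 117 and 135 CPM, a ratio of 0.861 (0.750 to 0.987), and Epha4 had 17.7 and 30.9 CPM, a ratio of 0.574 (0.403 to 0.803). The muscle-like cells of dual-enSERT-1 came from 2 clusters, and those of dual-enSERT-2 from 1.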

How the data were processed

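The deposited files hold UMI counts per gene and cell barcode, 1 matrix per library. Per the file headers the counting was done by Cell Ranger 7.0.1, but version 3.1.0 of that tool, Seurat 4 and mm39 stand in the submitters' processing notes. Which annotation release was used, and whether introns and strand were, is not given in the sources used here. Per the labels' protocols, collagenase II was used to free the cells, 10000 of which went into the 10x 3′ v3.1 kit, for about 50000 reads each. Of 56982 feature IDs, 56236 were found in GENCODE M39. Promoter sequences are RefSeq's, from a table on GRCm38.p6, placed on GRCm39 by exact match.

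Barcodes with under 1000 genes or over 10% mitochondrial UMIs were removed, as were doublets called with Scrublet at an expected 8%, which took 211 barcodes (3.16%) of dual-enSERT-2 and 1749 (9.83%) of dual-enSERT-1. The cells kept had a median of 25841.5 UMIs in dual-enSERT-2 and 14000 in dual-enSERT-1. Each library was clustered with Scanpy 1.11.5 and leidenalg 0.10.2 (2000 variable genes, 30 components, 15 neighbours, resolution 1) without the 22 family genes, the reporters and Shh. A cluster was named from at least 3 markers that were 2-fold higher in it and found in 10% of its cells, and 622 cells of dual-enSERT-2 and 1460 of dual-enSERT-1 stayed unnamed. Levels are pooled CPM with exact Poisson intervals. Ratios have exact conditional binomial intervals and shares exact binomial (Clopper-Pearson) ones, all at 95%. UMIs correct for PCR copies, but cells of 1 library are not replicates, so no test was made. The fold calculation was tested on simulated counts. Python 3.11.15, NumPy 2.4.6, SciPy 1.17.1 and pandas 2.3.3 were used.

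The 8 members were always named. Other family and signalling genes were named where they met a rule for a difference or, for family genes, had 10 CPM in mesenchyme-like cells of both libraries, and for each member the 3 genes with the most similar position profile were named, except 1 that is not reported here. The members and lists were chosen with earlier results of these data known. Alternatives varied thinning, the pseudocount, the minimum level, scaling, cell filters, clustering and the cells compared.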

Additional observations from a re-analysis of the deposited data

Results flagged for a closer look

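Several members moved in opposite directions in the 2 libraries under the same comparison, and none of these differences was tested, as each group held 1 library. Between distal and proximal cells the log2 fold of Epha3 was -1.06 in dual-enSERT-2 and 0.70 in dual-enSERT-1, with under 10 CPM in all these cell groups. That of Ephb2 was -0.28 in dual-enSERT-2 and 0.86 in dual-enSERT-1, and that of Efnb2 was 0.31 in dual-enSERT-2 and -1.01 in dual-enSERT-1. Between anterior and other cells Epha4 had 0.29 in dual-enSERT-2 and -0.18 in dual-enSERT-1. Without thinning the second was 0.03, so that the signs were alike. Epha7 had 0.25 and -0.24 in the same libraries, and -0.12 and -0.33 without thinning, and Efnb1 had -0.19 and 0.27. Epha4 also had opposite signs by position between dorsal and other cells, with -0.39 in dual-enSERT-2 and -0.0739 in dual-enSERT-1 within distal cells and 0.36 and 0.56 within proximal cells, a difference between positions that was not tested.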

How the results depend on the processing

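No paired analysis was possible because each group held 1 library. Of 73 recomputed counts of members, 59 stayed within 1.5 times and 14 moved, and of 366 recomputed log2 folds of members that met a rule, 62 moved and none changed sign. Of 2632 recomputed single values, 456 moved. Distal against proximal, Epha4 and Efnb1 stayed higher and Epha7 and Efna5 lower under all 15 alternatives tried. Epha4 ranged over 1.86 to 2.15 in dual-enSERT-2 and 0.99 to 1.19 in dual-enSERT-1, Epha7 over -1.94 to -1.35 and -3.26 to -2.68, Efna5 over -0.92 to -0.72 and -0.85 to -0.71, and Efnb1 over 0.59 to 0.65 and 0.68 to 0.88. The anterior count of 0 became 1 with 2 UMIs of the position genes and no thinning (Efna5) and with Hand2 cells as the comparison (Efna5). It also became 1 with CPM free of haemoglobin, mitochondrial and ribosomal protein genes, with at least 2000 genes a cell, with at most 5% mitochondrial UMIs and with no minimum level (Epha3 each time), and 2 within distal cells (Efna5 higher, Efnb2 lower). The dorsal count of 1 became 2 with no thinning and with 10000 UMIs (Epha7 added) and 0 within distal cells, where Efnb2 fell under 0.58 in dual-enSERT-1. The library count of 2 became 1 (Epha7) with the mean of per-cell CPM, with a pseudocount of 5 CPM and with trimmed-mean scaling, under which the log2 fold of Efnb2 was -0.94 in place of -1.01. It became 3 with no minimum level (Epha3 added, lower in dual-enSERT-2) and 0 within distal cells. In ridge cells Epha4 stayed higher and Ephb2 lower in both libraries under all 13 alternatives, and keeping doublets gave the lowest Epha4 log2 folds, 1.08 and 1.11. The top class of Ephb2 and the arterial comparison changed as given with those results. The causes were not tested, and shares over all features are not given for these alternatives. Leaving out the barcodes that both libraries share, added after seeing the data, changed none of these 4 counts.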

Other observations

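Shh and Sox9 UMIs were read in mesenchyme-like cells thinned to 5000 UMIs each, without the shallower cells. Cells with a Shh UMI numbered 104 in dual-enSERT-2 and 274 in dual-enSERT-1. In them Efnb2 had 39.5 CPM against 12.5 CPM in cells with none in dual-enSERT-2, and 60.1 against 27.0 CPM in dual-enSERT-1. Epha7 had 30.3 against 57.0 CPM in dual-enSERT-2 and 38.6 against 127 CPM in dual-enSERT-1. In cells with a Sox9 UMI, Epha7 had 69.8 against 51.4 CPM in cells with none in dual-enSERT-2 and 172 against 87.0 CPM in dual-enSERT-1, and Ephb3 had 27.0 against 20.8 CPM and 30.9 against 23.7 CPM. These cells are also distributed unevenly over the proximal-distal groups, and the part of that in the values was not tested.

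Of the other family genes, 3 are named here after their values by class were seen. Efna1, an ephrin-A, had 212 CPM in endothelial-like cells of dual-enSERT-2 and 206 CPM in those of dual-enSERT-1. Epha6 had 83.6 and 50.1 CPM in muscle-like cells, and Epha1 had 35.9 and 34.4 CPM in ectoderm-like cells. Epha5 had 177 CPM in muscle-like and 17.0 CPM in mesenchyme-like cells of dual-enSERT-2, against 58.6 and 30.1 CPM in dual-enSERT-1. Ephb4, the receptor of ephrin-B2 known from veins, had 70.6 and 71.3 CPM in endothelial-like cells and 47.2 and 53.5 CPM in mesenchyme-like cells. In mesenchyme-like cells Efna2 had 83.4 CPM in dual-enSERT-2 and 84.0 CPM in dual-enSERT-1, Efna4 had 69.2 and 62.6 CPM, and Efnb3 had 23.1 and 27.1 CPM.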
